A study of Mus musculus with 4 samples.

Results

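Wt1-positive mesenchyme was examined in mouse gastruloids at day 11 of culture. Its cells were chosen from the day 11 count matrix by their own reads: a cell had to hold at least 2 Wt1 unique molecular identifiers (UMIs, each 1 captured transcript), fewer than 30 Myl7 UMIs per 10000, and no UMI of Epcam or Cdh5, the markers of cardiomyocytes, epithelium and endothelium. Among 9584 day 11 cells, 8730 had 2000 or more UMIs and a mitochondrial share under 20%, and 472 of these met the rule. They made up 5.41% of the cells that passed (95% exact binomial interval 4.94 to 5.90%), out of 31330 cells in the whole series.

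The gastruloids, aggregates that mimic parts of the early embryo, came from 1 wild type line of mouse embryonic stem cells, Zx1. They received a pulse of the Wnt agonist CHIR99021 and later bFGF, VEGF and ascorbic acid, from day 4 to day 7, and several gastruloids were pooled for each library. Days 4, 5, 6 and 11 each gave 1 single-cell library, holding 227398362, 236714826, 182150138 and 149169498 UMIs, with no reporter, deletion or treatment that sets 1 group of cells apart from another. Since each day had 1 library, cells are not replicates and no test was made. All intervals are at 95% and cover counting error only.

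Wt1 encodes a zinc finger transcription factor of the mesothelium, the epithelial sheet that lines the body cavities and their organs. In the heart this sheet is the epicardium, which gives rise to fibroblasts and mural cells by an epithelial to mesenchymal transition, and Wt1 also marks kidney progenitors, podocytes, the gonadal ridge and, at lower levels, some endothelium. Tcf21, a basic helix-loop-helix factor, is found in epicardium and in the mesenchyme of the head, lung and kidney, so the pair together does not name 1 tissue.

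In the mm10 build (GRCm38, with gene models of GENCODE vM21), Wt1 (ENSMUSG00000016458) lies on the forward strand at chr2:105126529-105173616. Its antisense neighbour Wt1os ends at base 105126510 of the same chromosome on the reverse strand, so these gene bodies do not overlap. Wt1os was seen in 97 members, at 15.4 CPM against 2.55 CPM in all other day 11 cells. Tcf21 (ENSMUSG00000045680) lies on the reverse strand at chr10:22817281-22820174. Also named repeatedly here are Upk3b (ENSMUSG00000042985) at chr5:136038496-136046487 and Aldh1a2 (ENSMUSG00000013584) at chr9:71215789-71296243, both on the forward strand.

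The members stood close to the threshold. Of the 472 cells, 278 (58.9%) held exactly 2 Wt1 UMIs, 105 held 3, 51 held 4 and 38 held 5 or more, with a highest value of 12. Just outside, 656 cells met every other limit with exactly 1 Wt1 UMI, and 5289 met them with 0. Median depth was 12619 UMIs in the members, 10795 in cells with 1 Wt1 UMI and 10659 in cells with 0, so the rule took deeper cells. The other limits removed 238 cells with at least 2 Wt1 UMIs: 184 had a Cdh5 UMI, 66 exceeded the Myl7 limit and 10 had an Epcam UMI, and some failed more than 1 limit. Members therefore held 1319 of the 3038 Wt1 UMIs of day 11 (43.4%), and the cells set aside for Cdh5 held 732 (24.1%).

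**Figure D1:**
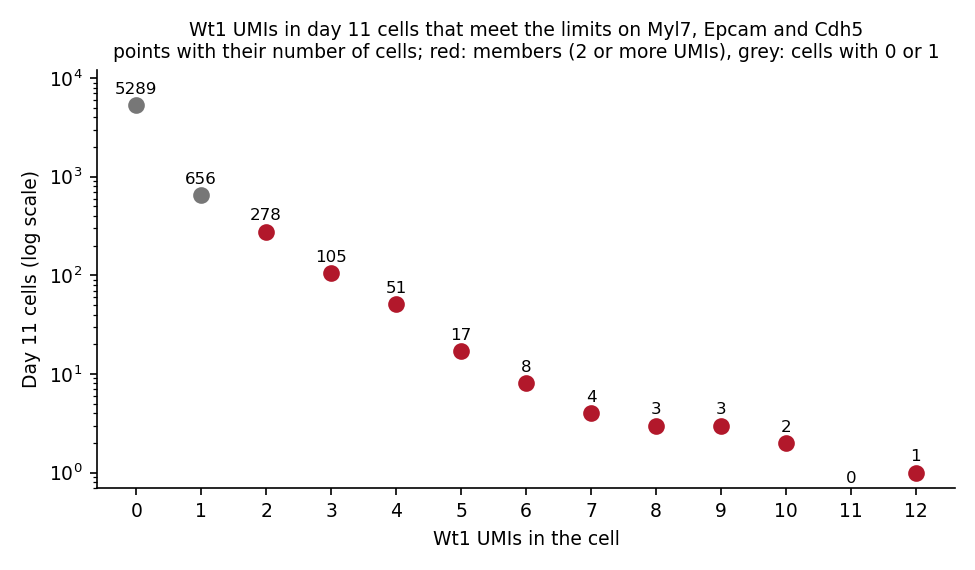
Number of day 11 cells (vertical axis, log scale) by the Wt1 UMIs in the cell (horizontal axis), for cells within the limits on Myl7, Epcam and Cdh5, with the number written above each point. Red points are the 472 members, and the counts decline from 5289 cells at 0 UMIs to 278 at 2 UMIs and 1 at 12 UMIs without a gap at the threshold.

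The label's second marker was present in part of the set. Tcf21 was seen in 231 of 472 members (48.9%), of which 82 held 1 UMI and 149 held 2 or more, with a highest value of 14. Because a share of positive cells grows with depth, each cell with at least 5000 UMIs was thinned at random to that number, which left 467 members. At that depth 29.1% of members (25.04 to 33.5%) and 12.1% of all other day 11 cells (11.3 to 12.8%) held a Tcf21 UMI. Summed over cells and scaled to UMIs per 1000000 (CPM, a unit here and not cardiopharyngeal mesoderm), Tcf21 stood at 83.4 CPM in members and 25.5 CPM in the other cells. Tcf21 is thus common but not general in the set. The name Wt1-positive mesenchyme follows the rule and the label alone, and these values do not establish that every member is mesenchyme.

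Wt1 reads in other gated cell types, where Wt1 is not a marker, show how often the gene is seen outside the mesenchyme. Their source (free RNA, mixed droplets or expression) was not tested. After thinning, 1.37% of neural cells, 2.06% of cardiomyocytes, 2.08% of myoblasts, 1.32% of macrophages and 0 of 100 epithelial cells (exact upper bound 3.62%) held a Wt1 UMI, against 67.5% of the members, whose value the rule fixed. Before thinning, at least 2 Wt1 UMIs were present in 35 of 1333 neural cells (2.63%, median 12385 UMIs), 66 of 1604 cardiomyocytes (4.11%, median 19819 UMIs) and 20 of 386 myoblasts (5.18%, median 22965 UMIs). These sets were gated on 1 to 4 marker genes, and 17 cells of the neural gate, 14 of the myoblast gate and 1 of the macrophage gate are also members. Whether single members with 2 Wt1 UMIs hold such reads was not tested. Endothelium differed from these types, with a Wt1 UMI in 20.9% of 446 thinned cells (17.2 to 24.9%).

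Cell barcodes were compared across libraries, and 57 of the day 11 barcodes also occurred in another day, 5 of them members. No doublet caller was run. Instead, members were searched for other cell types: 92 of 472 (19.5%) held at least 2 UMIs of each of at least 2 markers of cardiomyocytes (56 members), neural cells (37), skeletal myoblasts (13), endothelium (7), neural crest (2) or blood cells (1), and none did so for endoderm. Over all other day 11 cells that share was 51.7%. The 92 members had a median of 22085 UMIs and the remaining 380 a median of 11814.

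Against all other day 11 cells, members had higher levels of many fibroblast matrix genes and of single genes such as Itga8, Wnt4 and Aldh1a2, and lower levels of markers of heart muscle, gut and blood. Genes with at least 200 UMIs over day 11 were compared, 13105 in all: 341 (2.6%) were at least 2-fold higher in members and 1410 (10.8%) at least 2-fold lower, with a median ratio of 1.03 over all genes. The genes of the rule, Wt1, Myl7, Epcam and Cdh5, are among those counted. Limits on the last of them also bear on other genes of heart muscle, epithelium and endothelium. A gated set against the rest has no independent replicate, so ratios are given as a description. When all cells with markers of the 7 other types were left out of both sets, which was tried after seeing the data, 53 genes were at least 2-fold higher in the remaining 380 members and 164 at least 2-fold lower. Wnt4 (2.55), Itga8 (2.29), Aldh1a2 (2.24) and Tlx1 (2.00) kept ratios of at least 2 there, while Tac2 (1.86), Dcn (1.61), Tcf21 (1.52) and Col1a1 (1.36) did not.

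Most of the 25 genes with the highest ratios were spread over many members. Itga8, an integrin subunit that binds nephronectin, was seen in 243 members at 75.4 CPM against 16.96 CPM elsewhere, a ratio of 4.45 (4.05 to 4.88). Tac2, the precursor of neurokinin B, was seen in 270 members at 238 CPM against 71.1 CPM, and Shisa3 in 207 members at 63.5 CPM against 17.5 CPM. Tlx1, a homeobox factor known from the spleen, was seen in 116 members at 40.5 CPM against 10.2 CPM. Aldh1a2, the main enzyme of embryonic retinoic acid synthesis, was seen in 80 members at 45.0 CPM against 9.71 CPM, a ratio of 4.64 (4.11 to 5.23).

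The same 25 genes held several secreted or matrix proteins. Dcn (decorin) reached 218 CPM against 67.8 CPM, Ecm1 128 CPM against 38.4 CPM, and Loxl1, a crosslinking enzyme of elastic fibres, 35.6 CPM against 10.3 CPM. Angptl4, an inhibitor of lipoprotein lipase, stood at 49.4 CPM against 14.7 CPM, Serping1, the inhibitor of complement C1, at 34.3 CPM against 8.99 CPM, and Slc40a1, the iron exporter ferroportin, at 45.2 CPM against 12.3 CPM. Each was seen in 143 or more members. Saa3, an acute phase protein, was of another kind: it reached 50.5 CPM against 7.83 CPM, yet 12 members held it and 5 of those held 95.5% of its UMIs.

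At the low end, the genes were those of other tissues. Alb and Nppa (albumin and atrial natriuretic peptide) had no UMI in 472 members and stood at 30.4 and 51.5 CPM in the other cells. By an approximate 1-sided limit, 3 divided by the cells or UMIs, a count of 0 allows up to 0.636% of cells and 0.398 CPM. The first is a share of cells with a UMI at this depth, not of cells that express the gene. Afp was at 0.531 CPM against 125 CPM and the cardiac myosin Myh6 at 14.7 CPM against 714 CPM. All 10 cardiomyocyte, all 8 endothelial, all 7 measured blood and all 8 measured endoderm markers were at least 2-fold lower in members, as were 10 of 11 neural markers, although the limits on Myl7, Epcam and Cdh5 bear directly on several of these types.

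Of 17 measured epicardial and mesothelial genes, 8 were at least 2-fold higher in members and 2 at least 2-fold lower, and the list's median ratio was 1.69 beside 1.03 for all genes. Every count of a list against all other cells is to be read beside the 2.6% higher and 10.8% lower of all genes, and against the Tcf21-positive cells beside 3.19% and 2.37%. The 8 are Tcf21, Tbx18, Upk3b, Upk1b, Krt19, Aldh1a2, Sema3d and Bnc2. Tbx18, a T-box factor of the epicardium, stood at 11.3 CPM against 3.39 CPM but was seen in 21 members, and its ratio turned to 0.324 when the rule was applied to thinned cells and 0.561 without cells with markers of 7 other types. Sema3d, a guidance ligand, was seen in 58 members at 10.5 CPM against 3.57 CPM, and Bnc2, a zinc finger factor, in 112 members at 21.7 CPM against 10.8 CPM. The 2 lower genes are Tbx20 (12.8 CPM against 27.3 CPM) and Gpm6a (2.66 CPM against 5.36 CPM). Msln and Muc16, genes of mature mesothelium, had no UMI in the members, but Muc16 had none in the other cells and Msln stood at 0.0426 CPM there, under the 0.398 CPM that a count of 0 allows in members, so no difference could be seen at this depth.

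The mesothelial genes of this list lay in few cells. Upk3b, an uroplakin of mesothelium, had a level of 23.8 CPM in members and 0.611 CPM elsewhere, a ratio of 38.9 (29.9 to 50.9), but 9 of 472 members (1.91%) held all of it, with 6 to 67 UMIs each. These 9 cells had 13593 to 134096 UMIs, with a median of 41996, and 2 to 12 Wt1 UMIs. Of the 9, 8 held Upk1b, 8 held Krt19, 7 held Tcf21, 5 held Aldh1a2 and 4 held Tbx18, while all 9 held Krt8, Krt18 and Rspo1, a secreted activator of Wnt signalling. Their level of Krt19 was 447 CPM, of Podxl (podocalyxin) 69.8 CPM and of Bnc1 32.6 CPM. Muscle reads were present too: 6 of the 9 held at least 2 UMIs of each of at least 2 cardiomyocyte markers. Of the other 463 members, which are shallower, 50 (10.8%) did so. The summed level of that list was 668 CPM in the 9 cells and 902 CPM in the others. Myl7 reached 137 UMIs in a cell, and the source of these reads was not tested.

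Without these 9 cells the other 463 members had 0.563 CPM of Krt19, 4.93 CPM of Krt8, 0.282 CPM of Podxl and 6.76 CPM of Tbx18, and no UMI of Upk3b or Upk1b. The Krt19 ratio to all other day 11 cells then became 0.0436 and that of Rspo1 0.979. In the reverse direction, the 9 cells had lower levels of some genes that many members hold. Itga8 stood at 6.98 CPM in them and 79.6 CPM in the other members, Tlx1 at 2.33 and 42.8 CPM, and Tac2 at 90.8 and 247 CPM. Over all 8730 cells, 16 held at least 2 Upk3b UMIs, and 12 of these also held at least 2 Wt1 UMIs, of which 3 were outside the set by its other limits. The split by Upk3b was chosen after its values were seen.

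Levels by Wt1 UMI number showed the same 2 kinds of gene. Itga8 stood at 21.6 CPM in cells with 0 Wt1 UMIs, 56.0 CPM with 1, 68.7 CPM with 2, 73.5 CPM with 3 or 4 and 108 CPM with 5 or more. Tcf21 went from 35.5 CPM at 0 to 76.5 CPM at 1, 76.3 CPM at 2, 96.5 CPM at 3 or 4 and 78.1 CPM at 5 or more. The intervals for Tcf21 overlapped between 1 and 2 UMIs, so cells just outside the threshold and just inside it did not differ in Tcf21 beyond counting error. Upk3b stayed between 0.374 and 7.53 CPM up to 4 Wt1 UMIs and reached 141 CPM in the 38 cells with 5 or more, where 5 cells held it.

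**Figure D2:**
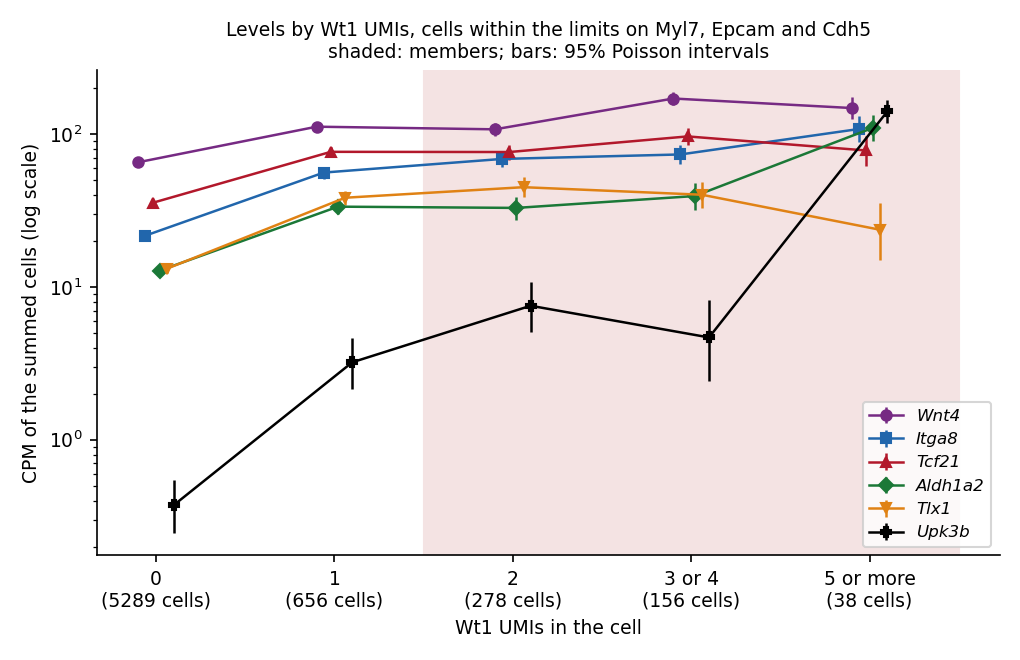
CPM of 6 genes (vertical axis, log scale) summed over day 11 cells with 0, 1, 2, 3 or 4, and 5 or more Wt1 UMIs (horizontal axis, with cell numbers), with 95% Poisson intervals and members shaded. Tcf21 and Tlx1 stand at 76.5 and 38.3 CPM at 1 Wt1 UMI, outside the members, near their levels at 2, while Itga8, Aldh1a2 and Upk3b are highest at 5 or more, at 108, 110 and 141 CPM.

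Members with 3 or more Wt1 UMIs were also compared with those with 2, and 435 of 12871 genes (3.38%) were at least 2-fold higher and 520 (4.04%) at least 2-fold lower. Krt19 stood at 51.1 and 3.76 CPM, Tbx18 at 21.2 and 2.51 CPM and Saa3 at 101 and 5.77 CPM, genes held by 12 to 21 members. Genes held by more members differed less: Tac2 stood at 239 and 236 CPM, Tcf21 at 91.5 and 76.3 CPM, and Wnt4 at 165 and 107 CPM. This split uses the count that chose the members.

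The most similar cells were 603 with at least 2 Tcf21 UMIs and no Wt1 UMI, within the same limits on Myl7, Epcam and Cdh5 (median 11401 UMIs). Their own Tcf21 level of 228 CPM follows from that choice. Upk3b had no UMI in these cells, while 9 of the 472 members held all of its member UMIs. The lower 95% limit of the ratio, 53.1, counts these UMIs as independent. It does not describe the other 463 members, which had none. Against them, 416 of 13022 genes (3.19%) were at least 2-fold higher in members and 309 (2.37%) at least 2-fold lower, with a median ratio of 1.02. Of the 25 genes with the highest ratios, 21 had over 50% of their member UMIs in 5 cells, against 2 of 25 in the comparison with all other cells. Among these 21 were muscle genes (Tnnc2, Acta1, Mylpf, Myl1, Myog and Actc1), keratins (Krt8, Krt18 and Krt19) and neuropeptides (Sst and Cartpt). Myog, a myogenic factor, stood at 43.4 CPM in members and 6.37 CPM in the Tcf21-positive cells, but 9 members held it and 1 of them held 110 UMIs.

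**Figure D3:**
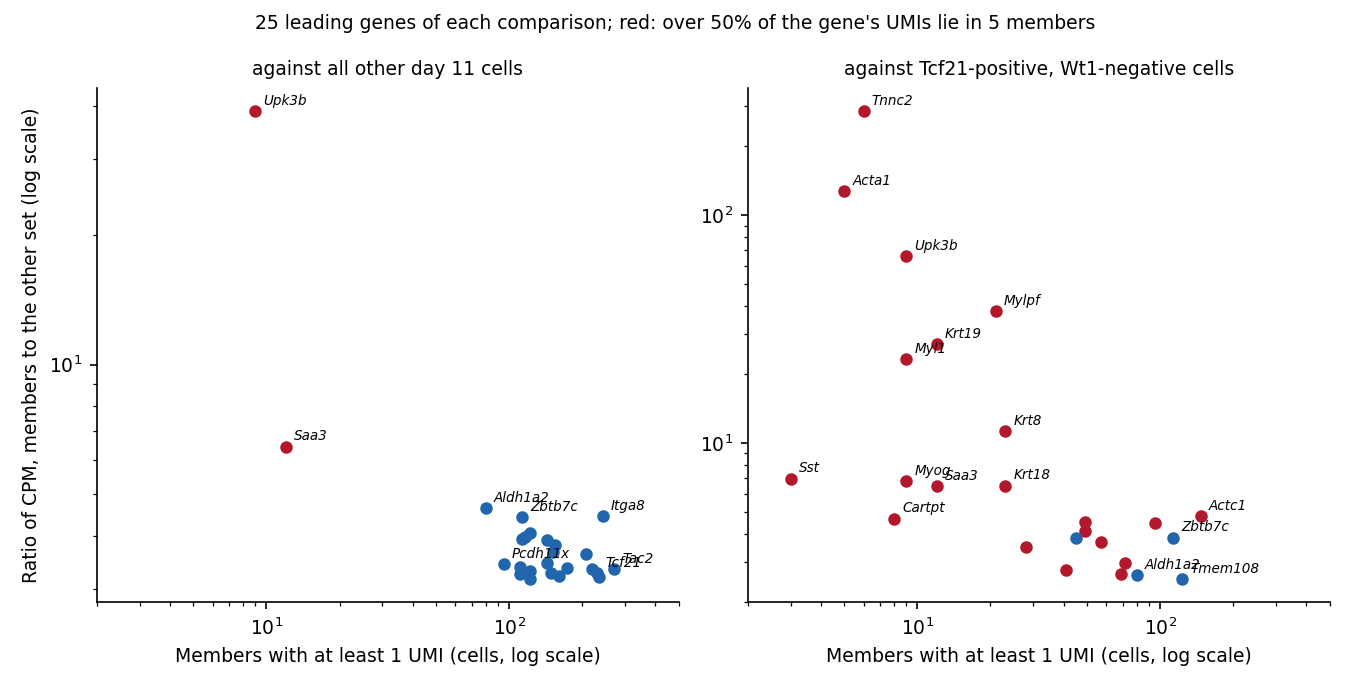
Ratio of CPM in members to the other set (vertical axis, log scale) against the number of members with at least 1 UMI (horizontal axis, log scale) for the 25 leading genes of 2 comparisons, red where over 50% of the gene's member UMIs lie in 5 cells. On the left Upk3b and Saa3 are red and the others are seen in 80 or more members, and on the right 21 of 25 genes are red.

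Genes that many members share gave smaller differences from the Tcf21-positive cells. Wnt4, a ligand that acts in kidney and gonad epithelium and in mesothelium, was seen in 234 members at 134 CPM against 64.4 CPM, a ratio of 2.09 (1.88 to 2.32). After thinning, 34.7% of members (30.4 to 39.2%) and 17.1% of the Tcf21-positive cells (14.2 to 20.4%) held it. Zbtb7c, a zinc finger factor, was held by 11.6% against 3.32% after thinning, and Aldh1a2 by 10.7% against 4.82%. Tlx1 was held by 13.1% against 11.8% and Itga8 by 28.1% against 23.4%, shares whose intervals overlap.

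**Figure D4:**
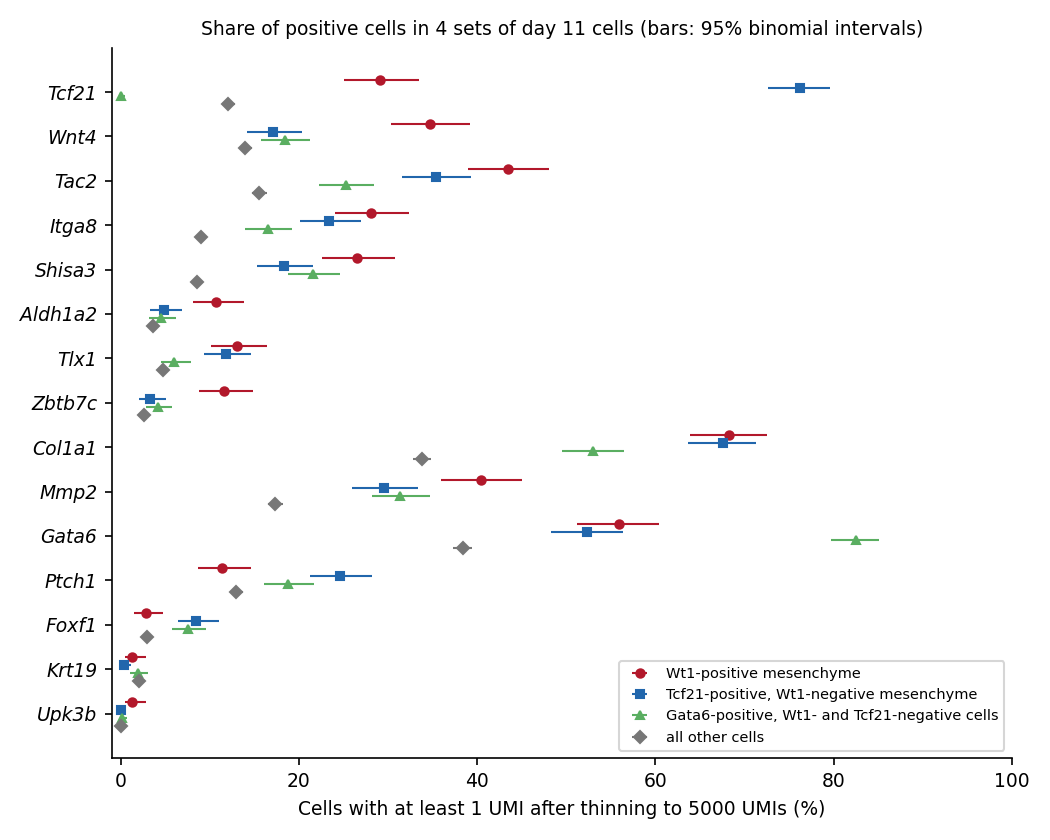
Share of cells with at least 1 UMI after thinning each cell to 5000 UMIs (horizontal axis, %) for 15 genes in members and 3 other sets of day 11 cells, with 95% binomial intervals. Wnt4, Aldh1a2, Zbtb7c and Mmp2 are higher in members than in each other set, Ptch1 and Foxf1 are lower than in the Tcf21-positive and Gata6-positive sets, and the values of Tcf21 and Gata6 in the sets named for them follow from their gates.

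Genes lower in members than in the Tcf21-positive cells included parts of the Hedgehog response. Ptch1, the Hedgehog receptor and a target of the pathway, stood at 37.5 CPM against 92.0 CPM, a ratio of 0.407 (0.354 to 0.467), Gli1 at 4.91 CPM against 10.1 CPM and Hhip at 2.39 CPM against 7.33 CPM. Foxf1, a forkhead factor of splanchnic mesenchyme, was at 8.24 CPM against 25.1 CPM and was seen in 23 members. Fewer members than Tcf21-positive cells held Ptch1 after thinning, 11.3% against 24.6%. Against all other day 11 cells these genes were not lower in the main setting, with ratios of 1.06 for Ptch1, 1.66 for Gli1 and 1.22 for Hhip. There Gli2 had a ratio of 2.08. Under the alternative settings the Ptch1 ratio ranged from 0.526 to 1.28. In that comparison 2 of 19 genes of the list were at least 2-fold higher (Gli2 and Ccn1) and 1 was lower (Ankrd1). Against the Tcf21-positive cells the other Hedgehog, Notch and Hippo genes were within 2-fold, except Ankrd1 at 1.73 CPM against 0.600 CPM, so that 1 of 19 measured genes was higher and 3 were lower. Macrophage genes were also lower (Tyrobp at 0.797 CPM against 28.6 CPM), and each of the 7 measured was seen in at most 10 members. In the Tcf21-positive set, too, few cells held them together. At least 2 UMIs of each of at least 2 blood markers were present in 3 of those 603 cells and 1 of 472 members.

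In the list of Wnt genes, 5 of 19 measured were at least 2-fold higher than in all other cells (2.6% of all genes were) and 3 at least 2-fold lower (10.8% of all genes). Besides Wnt4, the higher ones were Rspo3, a Wnt activator, at 80.5 CPM against 33.3 CPM, Wnt5b, Wnt11 and the antagonist Dkk1, which 15 members held. Rspo3 did not differ from the Tcf21-positive cells by 2-fold (73.9 CPM), and against them 4 of 19 genes were higher (Wnt4, Rspo1, Dkk1 and Sfrp5) and 2 lower (Rspo2 and Dkk2). In the 463 members without Upk3b, Rspo1 stood at 11.0 CPM, which is less than 2-fold above the 6.12 CPM of the Tcf21-positive cells. Wnt6, which missed the limit of 200 UMIs, had 4.78 CPM in members and 0.725 CPM elsewhere, in 17 cells that did not include the 9 with Upk3b.

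In the retinoid list, 2 of 12 measured genes were at least 2-fold higher than in all other cells, Aldh1a2 and Rdh10, which makes the retinaldehyde that Aldh1a2 uses (41.6 CPM against 16.6 CPM), and 2 were at least 2-fold lower. The lower ones were the carrier of retinol in blood, Rbp4 (5.71 CPM against 84.5 CPM), and the retinoic acid binding protein Crabp2 (33.2 CPM against 87.3 CPM). Over all genes these shares were 2.6% and 10.8%. Aldh1a2 and Rdh10 were also lower in the Tcf21-positive cells than in members, at 17.1 and 27.9 CPM. Dhrs3, which turns retinaldehyde back to retinol, stood at 45.8 CPM in members, 25.5 CPM in all other cells and 30.4 CPM in the Tcf21-positive cells. The degrading enzyme Cyp26b1 was at 9.83 CPM in members and 10.8 CPM in all other cells. Stra6, the retinol transporter, was at 7.31 CPM in members and 6.52 CPM in all other cells.

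Matrix genes were higher in members than in all other cells, without setting them apart from the Tcf21-positive cells. Against all other cells, 13 of 28 measured fibroblast matrix genes were at least 2-fold higher and none was 2-fold lower, with a median ratio of 1.96 (2.6% and 10.8% of all genes were higher and lower). Col1a1 stood at 348 CPM against 122 CPM and Col6a2 at 124 CPM against 47.2 CPM. Against the Tcf21-positive cells none of the 28 differed by 2-fold and the median ratio was 0.864, with Col1a1 at 323 CPM and Col3a1 at 721 CPM in members against 864 CPM. The basement membrane chains Col4a1 and Col4a2 were lower in members (76.0 and 42.2 CPM) than in all other cells (142 and 80.3 CPM), within 2-fold.

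Genes of the epithelial to mesenchymal transition followed the matrix genes. Of 15 measured, 5 were at least 2-fold higher than in all other cells, beside 2.6% of all genes, and none was 2-fold different from the Tcf21-positive cells. Snai2, a repressor of epithelial genes, stood at 78.0 CPM in members, 29.5 CPM in all other cells and 83.6 CPM in the Tcf21-positive cells. Zeb2 stood at 325, 142 and 352 CPM in the same order. Mmp2, a matrix protease, was held by 40.5% of members after thinning and 29.6% of the Tcf21-positive cells. Cdh1 had no UMI in the members, and the mesenchymal cadherin Cdh11 stood at 181 CPM in members and 192 CPM in the Tcf21-positive cells.

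Smooth muscle genes were mixed, beside 2.6% of all genes higher and 10.8% lower. Of 16, 4 were at least 2-fold higher than in all other cells (Tagln, Cald1, Pdgfrb and Rgs5) and 5 at least 2-fold lower (Acta2, Cnn1, Myl9, Tpm1 and Mcam). The lower ones are also expressed in muscle or endothelium, and the part of such cells in these values was not tested. Pdgfrb, a receptor of mural cells and fibroblasts, was at 86.1 CPM in members and 89.5 CPM in the Tcf21-positive cells. Kcnj8, a pericyte channel, was lower in members at 38.9 CPM against 79.1 CPM in the Tcf21-positive cells, a ratio of 0.492 (0.427 to 0.565). Tagln was higher at 79.3 CPM against 39.3 CPM and was seen in 80 members.

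Transcription factors of mesenchyme and of splanchnic mesoderm were broadly shared. None of 26 mesenchyme factors differed by 2-fold from the Tcf21-positive cells, and Nr2f2 (283 against 268 CPM), Meis2 (521 against 522 CPM) and Gata6 (237 against 238 CPM) had nearly equal levels in both. Among the 20 measured cardiopharyngeal and splanchnic factors, Lhx2 was higher in members (18.2 CPM against 7.57 CPM, in 28 members), and Foxf1, Barx1 and Msc were lower. Isl1 stood at 11.8 CPM against 18.9 CPM. Tbx1, with 0.266 CPM, was seen in 2 members. Against all other day 11 cells, none of the 26 mesenchyme factors was at least 2-fold higher and 4 were at least 2-fold lower. Their median ratio there was 0.981, and over all genes 2.6% were higher and 10.8% lower.

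Some genes of kidney and gonad progenitors were near absent and others were present. The list summed to 145 CPM in members, 197 CPM in all other cells and 179 CPM in the Tcf21-positive cells. Pax2 had 0.266 CPM, Pax8 0.133 CPM, Six2 0.531 CPM and Nr5a1, the steroidogenic factor, 0.133 CPM, each in 1 to 4 members. Of 14 measured genes of the list, 1 was at least 2-fold higher than in all other cells, Foxd1 at 11.7 CPM against 3.47 CPM in 33 members, and 7 were at least 2-fold lower, where 2.6% and 10.8% of all genes were. Osr1, an early factor of intermediate and lateral mesoderm, was present in 183 members at 53.4 CPM against 73.0 CPM in the Tcf21-positive cells. Emx2, a gonad and kidney homeobox gene, was at 10.2 CPM against 4.32 CPM.

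In the list of the septum transversum and liver stellate cells, Ngfr (33.3 CPM against 10.1 CPM) and Hgf (14.3 CPM against 5.36 CPM) were at least 2-fold higher than in all other cells, 2 of 11 measured, beside 2.6% of all genes. Against the Tcf21-positive cells Ngfr and Hgf were within 2-fold. There 1 of 11 was higher (Lhx2) and 1 lower (Foxf1), beside 3.19% and 2.37% of all genes. Lrat, which stores retinol in stellate cells, was seen in 3 members.

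Signals of the FGF, BMP and TGF-beta families differed in single genes. Of 25 measured, 3 were at least 2-fold higher than in all other cells, Bmper, Tgfb3 and Tgfbi, a matrix protein induced by TGF-beta that was seen in 297 members at 113 CPM against 45.4 CPM. The 4 lower genes were Fgf18, Bmp2, Bmp7 and Grem1, and against the Tcf21-positive cells 4 genes were higher (Fgf9, Fgf18, Bmp7 and Fst) and 1 was lower (Grem1), where 3.19% and 2.37% of all genes were. In the comparison with all other cells the shares of all genes were 2.6% and 10.8%, for these and the next signals. Of 26 growth and guidance signals, 4 were at least 2-fold higher than in all other cells and 3 lower, while none differed by 2-fold from the Tcf21-positive cells. The higher ones were the chemokine Cxcl12, the growth factor Ptn (3566 CPM against 1552 CPM, in 466 members), the guidance ligand Slit2 and Sema3d.

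Markers of other cell types differed more between the 2 mesenchymal sets than the mesenchymal lists did. Against the Tcf21-positive cells, 5 of 8 skeletal myoblast genes, 5 of 10 cardiomyocyte genes, 3 of 8 endothelial genes, 2 of 5 measured neural crest genes and 1 endoderm gene (Ttr, at only 0.664 CPM) were at least 2-fold higher in members. None of 11 measured neural or 7 measured blood genes was 2-fold higher. At least 2-fold lower were 1 neural, 6 blood and 1 cardiomyocyte gene. Over all genes, 3.19% were at least 2-fold higher and 2.37% at least 2-fold lower in this comparison. Levels of the endothelial list were low, with a sum of 44.6 CPM in members and 28.9 CPM in the Tcf21-positive cells. Of the myoblast genes, Myog had no UMI in 463 members and a highest value of 110 UMIs. The summed level of the myoblast list was 199 CPM in members, 69.4 CPM in the Tcf21-positive cells and 283 CPM in all other cells. Of the 472 members 13 (2.75%) held 2 of these genes at 2 UMIs, and of the 603 Tcf21-positive cells 10 (1.66%). The part of mixed droplets in these values was not tested.

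Cell division genes were close to those of similar cells. None of 20 differed by 2-fold in either comparison. Mki67 was at 155.4 CPM in members, 111 CPM in all other cells and 146 CPM in the Tcf21-positive cells, and after thinning 20.1%, 17.01% and 19.4% of these cells held it. Of 27 measured Hox genes, none was 2-fold different from the Tcf21-positive cells, and 5 were at least 2-fold lower than in all other cells: Hoxa7, Hoxa9, Hoxb6, Hoxb9 and Hoxc10, beside 10.8% of all genes. Hoxc6 (46.9 against 29.5 CPM) and Hoxc8 (39.7 against 24.5 CPM) were above their level in the Tcf21-positive cells, by ratios of 1.59 (1.34 to 1.88) and 1.62 (1.35 to 1.95).

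Another set, 811 cells with at least 2 Gata6 UMIs and no UMI of Wt1 or Tcf21, had a median depth of 11237 UMIs. Against it, 283 of 13079 genes (2.16%) were at least 2-fold higher in members and 583 (4.46%) at least 2-fold lower. Wnt4 (62.9 CPM there), Itga8 (34.8 CPM), Tlx1 (13.1 CPM), Aldh1a2 (14.8 CPM) and Zbtb7c (8.08 CPM) were at least 2-fold lower there than in members. Against the Tcf21-positive cells this held for Wnt4, Aldh1a2 and Zbtb7c, but not for Itga8 (ratio 1.40) and Tlx1 (ratio 1.45). The strongest differences in the other direction were gut and liver genes, with Afp at 0.531 CPM in members and 296 CPM in the Gata6-positive cells. Few cells stood behind this level: 3 of the 811 (0.370%) held at least 2 UMIs of each of at least 2 endoderm markers. The median share of endoderm UMIs per cell there was 0.

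Members with and without Tcf21 differed mainly in genes that few cells carried. The 231 members with a Tcf21 UMI had a median of 14086 UMIs and the other 241 a median of 12144, and 606 of 12875 genes (4.71%) were at least 2-fold higher in the first and 438 (3.4%) at least 2-fold lower. Skeletal muscle genes lay almost wholly in members without Tcf21: Myog stood at 95.9 CPM there and 0.242 CPM in members with it, and Mylpf at 258 and 3.15 CPM. Of the 13 members with skeletal myoblast markers, 11 lacked Tcf21. Genes held by many members differed less, with Wnt4 at 126 CPM with Tcf21 and 144 CPM without, Tac2 at 264 and 205 CPM, Itga8 at 89.1 and 58.8 CPM, and Tlx1 at 53.5 and 24.7 CPM. In 70 members Tcf21 and Tlx1 were found together, and in 38 Tcf21 and Aldh1a2. This split, too, was chosen after values were seen.

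Wt1 and cells of this kind were rare before day 6. Cells that met the rule numbered 11 of 7202 at day 4, 8 of 7408 at day 5, 853 of 5850 at day 6 (14.6%) and 472 at day 11. Depth differs between the libraries, with a median of 25581 UMIs at day 6 and 12082 at day 11, and on cells thinned to 5000 UMIs the rule held for 2.34% at day 6 (1.96 to 2.76%) and 1.67% at day 11 (1.41 to 1.97%), for 2 cells at day 5 and for none at day 4. Wt1 summed over each whole day was 0.673, 0.504, 23.3 and 20.5 CPM. With 1 library a day, age and library cannot be told apart.

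**Figure D5:**
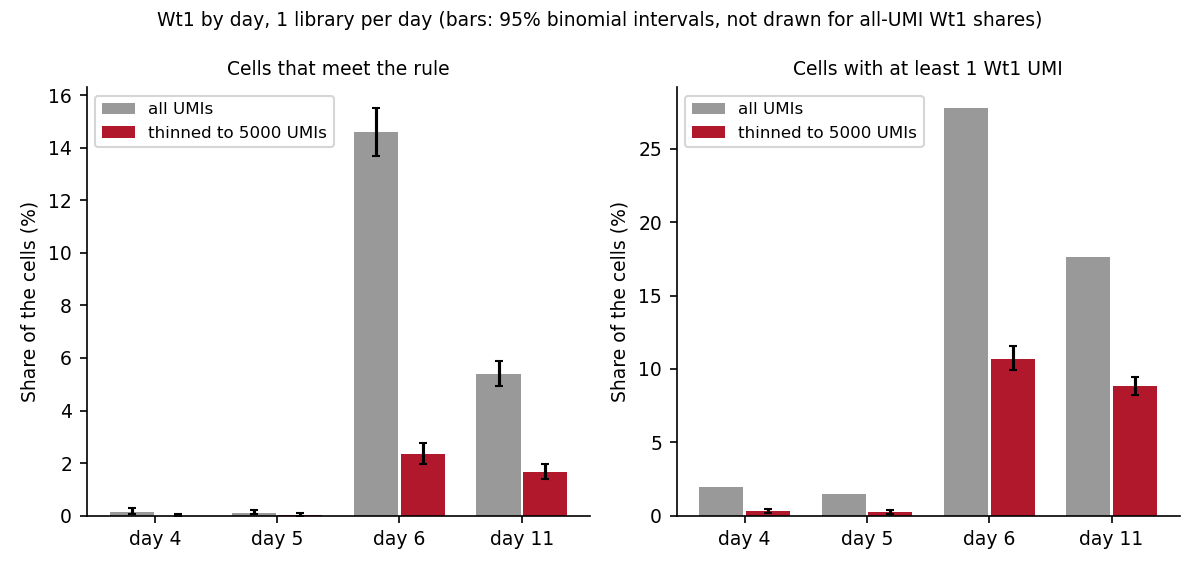
Share of the cells of each day (vertical axes, %) that meet the rule (left) and that hold at least 1 Wt1 UMI (right), before and after thinning to 5000 UMIs, with 95% binomial intervals where drawn. Both shares are near 0 at days 4 and 5, and on the left the shares at days 6 and 11 are 14.6% and 5.41% before thinning and 2.34% and 1.67% at equal depth.

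The day 6 cells of the rule had a makeup that was in part shared with the day 11 members and in part different. Against all other day 6 cells, 77 of 12581 genes (0.612%) were at least 2-fold higher and 802 (6.37%) at least 2-fold lower. Of 17 measured epicardial and mesothelial genes, 4 were at least 2-fold higher and 2 at least 2-fold lower at day 6, against 8 and 2 at day 11. Tbx18 (ratio 2.39) and Bnc2 (2.22) were among the higher at day 6. Osr1 stood at 65.7 CPM against 17.4 CPM, Shisa3 at a ratio of 2.73, Tac2 at 40.0 CPM against 16.6 CPM, and Aldh1a2 at 21.2 CPM against 8.28 CPM. The last 3 were thus higher than in the rest of their library at both days. Wnt4 was not, at 12.4 CPM against 13.3 CPM, nor was Tlx1, at 6.19 CPM against 19.7 CPM. Pax8, an intermediate mesoderm factor, was at 9.81 CPM in the day 6 cells and 0.133 CPM in the day 11 members. Dcn went from 0.586 to 218 CPM, Col1a1 from 44.3 to 348 CPM and Hand1 from 77.6 to 5.31 CPM, levels that come from separate libraries and were not tested.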

How the data were processed

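Single-cell RNA-seq (10x) of mouse gastruloids was deposited as 1 matrix of raw UMI counts per gene and cell for each of days 4, 5, 6 and 11. Per the labels, the authors made these counts with Cell Ranger, version 3.1.0 in the submitters' processing notes and 6.0.1 in the day 11 matrix header, against mm10. The authors' cell calling was kept, and their annotation, normalization and Wilcoxon tests over cells were not used.

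Matrices were read with Python 3.11.15, numpy 2.4.6, scipy 1.17.1 and pandas 2.3.3, and plotted with matplotlib 3.10.9. Cells with 2000 or more UMIs and a mitochondrial share under 20% were kept, which removed 831 and 23 of 9584 day 11 cells, and no clustering and no doublet caller was run. UMIs were summed over each set of cells and scaled to CPM. Ratios carry exact conditional binomial intervals, levels exact Poisson intervals and shares exact Clopper-Pearson intervals, all at 95%, and these steps were checked on simulated data. The limits given for a count of 0 in members are approximate and 1-sided instead: 3 divided by the cells or UMIs. Intervals treat UMIs as independent, which bursts of a gene in few cells violate. Genes with at least 200 UMIs over day 11 were compared, and a count of 0 was set to a floor of 3 UMIs. For shares of positive cells, each cell with enough UMIs was thinned once to 5000 UMIs. Genes were named as the 25 highest and 10 lowest ratios with at least 20 CPM in the higher set, leaving out the genes of the rule, mitochondrial and ribosomal protein genes, plus members of 23 gene lists; 1 list, of podocytes, is not reported here. Other singled-out genes, and the splits by Tcf21 and Upk3b, were chosen after values were seen. The members and the lists were chosen with earlier results of these data known. Each day has 1 library, so no test was made. Alternatives changed the Wt1 limit, thinning depth, filters on genes and cells, and the way cells were averaged.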

Additional observations from a re-analysis of the deposited data

How the results depend on the processing

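No paired analysis was possible because each day has 1 library. Under 19 alternatives, 57 of 84 values (the members' share, counts of genes past 2-fold and thinned Tcf21 share) moved little, 27 moved and none reversed. The share of members, 5.41%, became 12.9% with a limit of 1 Wt1 UMI, 2.22% with 3, 1.67% on thinned cells, 6.41% without cells with markers of other types and 8.70% without those of any of 7 types. Against all other cells, 341 higher genes became 593 on thinned cells, 200 without other types, 3898 with no filter on low counts, 185 with at least 1000 UMIs per gene and 53 without any of 7 types, and 1410 lower genes became 926 without other types, 662 with 1000 UMIs and 164 without any of 7 types. Against the Tcf21-positive cells, 416 higher genes became 657, 216, 1099, 151 and 75 under the same 5 settings, and 309 lower genes 610, 195, 791, 87 and 87. The thinned share of members with Tcf21, 29.1%, was 19.7% at 3000 UMIs, 44.1% at 10000, 48.9% with no thinning and 10.5% with 2 UMIs required.

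Ratios of 20 named genes to all other cells reversed in 12 of 260 values. On thinned cells Krt19 had 0.137 and Tbx18 0.324. Krt19 had 0.652 without cells above the 95th percentile of UMIs and 0.735 as a mean of CPM over cells. Without any of 7 types, Krt19 had 0.419, Osr1 0.771, Rspo1 0.736, Tbx18 0.561 and Tbx20 1.16. Without the 9 members with Upk3b, Krt19 had 0.0436, Rspo1 0.979 and Upk3b, then at 0 and set to the floor, 0.692. The last 2 settings were chosen after seeing the data, and the cause of these changes was not tested. Ptch1 and Gata4 are not among these 12, yet their ratios fell on both sides of 1 (0.526 to 1.28 and 0.538 to 1.22). Wnt4 stayed between 2.32 and 3.97, Itga8 between 2.29 and 5.70, Aldh1a2 between 2.24 and 6.19 and Tlx1 between 2.00 and 4.73. At a median of 12619 UMIs a cell, a gene near 10 CPM gives less than 1 UMI in most members, so absence from a cell says little.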

Other observations

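Endothelium held more Wt1 than the other gated types of day 11. Of 459 cells with at least 2 Cdh5 UMIs, 263 (57.3%) held a Wt1 UMI and 173 (37.7%) at least 2, at 47.1 CPM and a median of 26374 UMIs. After thinning to 5000 UMIs, 20.9% of endothelial cells (17.2 to 24.9%) held it, against 2.06% of cardiomyocytes (1.40 to 2.91%). Tcf21 did not share this pattern, with 2.47% of thinned endothelial cells (1.24 to 4.37%) and 3.19% of thinned cardiomyocytes (2.36 to 4.21%). These cells lie outside the mesenchyme by the limit on Cdh5.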
